A study of Mus musculus with 9 samples.

Results

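The vomeronasal type 1 receptor genes, whose symbols start with Vmn1r, were examined in RNA-seq libraries made from the main olfactory epithelium (MOE) of the mouse, taken whole. Every gene whose symbol starts with these letters was taken, which gave 211 of the 24421 genes with raw counts. The rule reads the symbol and no measured value. Of the 211 genes, 143 had at least 1 count in any library and 68 had none.

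Vomeronasal type 1 receptors are G protein-coupled receptors encoded by genes with an uninterrupted coding sequence. They are known from sensory neurons in the apical layer of the vomeronasal organ, a paired tube at the base of the nasal septum that is separate from the MOE, where they detect pheromones and other small molecules and signal through the G protein subunit Gnai2 and the channel Trpc2. The MOE senses mostly through odorant receptors, whose gene symbols start with Olfr, and to a smaller extent through trace amine-associated receptors (TAARs). The Vmn1r genes lie in clusters of tandem copies, and letters from V1ra to V1rk name subfamilies of related sequences.

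The 9 libraries came from mice at postnatal day 14, with 3 libraries per genotype. The labels give the strain as C57BL/6. The methods name C57BL/6J zygotes for the editing and, for the study's lines in general, a mixed background of C57BL/6J and 129. Littermates of 3 genotypes, called WT (wild-type), het (heterozygous) and homo (homozygous), carried 0, 1 or 2 copies of an allele in which TAAR enhancer 2, a regulatory element in the Taar gene cluster, was deleted by CRISPR-Cas9 genome editing. The deletion was studied in 1 established line, and no other allele or treatment is named. The replicates were counted as mice by the study, which used both sexes. The labels give neither the sex nor the animal behind a library, so the error values are the spread between libraries.

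Total counts ranged from 20527992 to 32262005 per library. All 7 listed markers of mature olfactory sensory neurons, such as Omp and Gnal, were counted in the MOE libraries, with summed levels from 5978 to 6854 CPM, which are counts scaled to a common library size with TMM, edgeR's trimmed-mean normalization. The 14 genes from Taar2 to Taar9 summed to 17.6 to 22.7 CPM in the homo libraries and to 32.0 to 44.8 CPM in the WT and het libraries. In bulk tissue, fewer cells of a type and less RNA per cell cannot be told apart.

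The libraries het 3 and WT 1 stood apart from the rest in the Vmn1r genes. The 211 genes summed to 178, 76 and 42 counts in WT 1 to 3, to 37, 52 and 912 counts in het 1 to 3, and to 54, 67 and 72 counts in homo 1 to 3. Het 3 alone held 61.2% of the 1490 Vmn1r counts and WT 1 a further 11.9%. Het 3 was not the deepest library, with 24905135 counts in all. On the CPM scale het 3 lay at 36.1 and WT 1 at 8.73, while the 7 other libraries lay between 1.55 and 2.68 with a mean of 2.16 ± 0.413 (SD, n = 7). Het 3 was thus 16.7-fold and WT 1 4.04-fold above that mean. Scaled to library totals without TMM, the exact 95% binomial interval was 34.3 to 39.1 CPM for het 3 and 7.44 to 10.04 for WT 1, against 1.09 to 2.04 for WT 3, the lowest library. These intervals cover counting error only.

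The split did not follow genotype, since the other 2 het libraries were among the lowest. Levels are given below for het 3, for WT 1 and for the 7 other libraries, a division made after the counts were seen. Another library, WT 3, stood apart in other genes: 285 of its genes with at least 25 counts exceeded 3 times the CPM of every other library. No Vmn1r gene could be among them, since the highest in WT 3 had 11 counts.

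**Figure D1:**
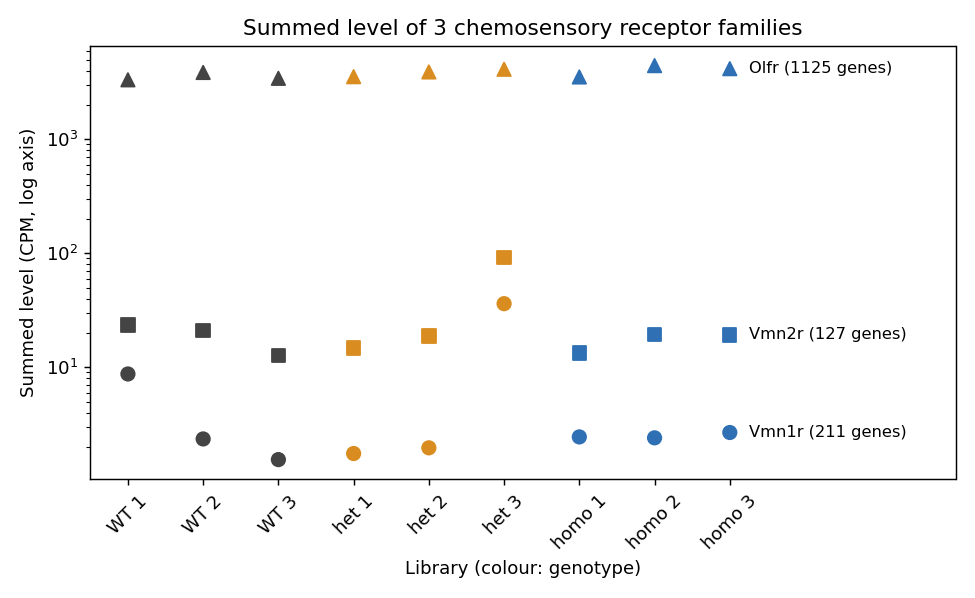
Summed level in CPM on a log axis for the Vmn1r, Vmn2r and Olfr genes in each of the 9 libraries, with points coloured by genotype (WT dark, het orange, homo blue). Vmn1r genes lie between 1.55 and 2.68 CPM in 7 libraries, at 8.73 in WT 1 and at 36.1 in het 3, and Olfr genes between 3323 and 4426 CPM throughout.

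Several sequences are shown because their likeness bears on which counts can be assigned to 1 gene. Each is the first 120 coding bases of a gene in GENCODE M21 (GRCm38, the mm10 build), 5′ to 3′ on the coding strand, and all of these coding sequences lie in 1 exon. Capitals mark the start codon. The first 5 genes are those with a count in every library, and the last 2 are the genes with the most counts in het 3.

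Vmn1r180: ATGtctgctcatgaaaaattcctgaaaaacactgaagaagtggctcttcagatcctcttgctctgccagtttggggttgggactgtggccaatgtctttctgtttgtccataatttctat
Vmn1r178: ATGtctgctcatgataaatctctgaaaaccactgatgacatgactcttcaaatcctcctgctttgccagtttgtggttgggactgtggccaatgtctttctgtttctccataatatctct
Vmn1r228: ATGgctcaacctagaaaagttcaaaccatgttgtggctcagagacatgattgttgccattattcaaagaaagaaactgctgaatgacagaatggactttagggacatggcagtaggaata
Vmn1r233: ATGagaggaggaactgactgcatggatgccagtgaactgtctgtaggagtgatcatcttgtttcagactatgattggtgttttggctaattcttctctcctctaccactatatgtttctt
Vmn1r199: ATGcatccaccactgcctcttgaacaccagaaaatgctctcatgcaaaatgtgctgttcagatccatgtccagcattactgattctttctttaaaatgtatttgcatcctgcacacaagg
Vmn1r71: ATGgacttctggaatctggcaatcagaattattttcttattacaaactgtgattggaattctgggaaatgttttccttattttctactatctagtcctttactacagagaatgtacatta
Vmn1r89: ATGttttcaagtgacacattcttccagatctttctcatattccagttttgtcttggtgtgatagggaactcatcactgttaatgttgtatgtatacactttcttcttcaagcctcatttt

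The coding sequences lie on chromosome 7 at 23952414-23953328 for Vmn1r180 and 23893529-23894440 for Vmn1r178, both on the plus strand. That of Vmn1r228 lies on chromosome 17 at 20776256-20777254 and that of Vmn1r233 at 20993730-20994686, both on the minus strand. Vmn1r199 lies on chromosome 13 at 22382538-22383638, plus strand. Vmn1r71 lies on chromosome 7 at 10747839-10748759, minus strand, and Vmn1r89 at 13219339-13220286, plus strand. Over the whole coding sequence, the 10 pairs among the first 5 genes were 52.4% to 90.8% identical, with a median of 53.3%. The pair at the top is Vmn1r178 and Vmn1r180, both of subfamily V1rd.

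Closer copies exist elsewhere in the family. The nearest relative of Vmn1r180 was Vmn1r183, 92.9% identical over the coding sequence, on chromosome 7 at 24054774-24055688. Its first 120 coding bases are shown with the 10 bases that differ from Vmn1r180 in capitals.

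Vmn1r183: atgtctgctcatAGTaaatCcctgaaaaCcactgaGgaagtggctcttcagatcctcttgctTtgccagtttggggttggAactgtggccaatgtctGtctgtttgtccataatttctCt

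Vmn1r183 had 1 count, in het 3, where Vmn1r180 had 60 over all libraries. Other members could not be separated at all. Vmn1r100 and Vmn1r148, on chromosome 7 at 20417942-20418862 and 22413583-22414503, have identical coding sequences, so that the following stretch belongs to both.

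Vmn1r100 and Vmn1r148: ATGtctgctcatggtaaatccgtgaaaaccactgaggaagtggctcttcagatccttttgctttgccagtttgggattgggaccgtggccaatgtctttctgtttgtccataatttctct

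Vmn1r100 was listed at 0 in every library and Vmn1r148 had 1 count. Across the family, the share of 50-base windows of the coding sequence found in no other annotated transcript had a median of 85.8% among the 140 seen genes with a coding sequence and of 12.4% among the 65 such genes not seen. Fewer than 50% of the windows were unique in 48 of the 65 and in 27 of the 140. The nearest relative was at least 99% identical for 33 of the 65 genes not seen and for 5 of the 140 seen. How reads mapping to several genes were counted is not given in the sources used here, so a gene listed at 0 is not shown to be silent. For a gene whose reads are all unique, 0 counts over the 9 libraries allow a level of up to 0.0131 CPM of the summed totals, from a floor of 3 counts that covers counting error only.

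Detection was thin. Only Vmn1r180 had more than 3 counts in each of the 9 libraries. It had 7, 7 and 7 counts in the WT libraries, 4, 6 and 10 in the het libraries, and 5, 6 and 8 in the homo libraries. The genotypes overlapped, and scaled to depth het 3 and WT 1 were the highest libraries here as well. Its mean over the 7 other libraries was 0.233 ± 0.0350 CPM (SD, n = 7), with 0.396 CPM in het 3 and 0.343 in WT 1.

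A further 4 genes had at least 1 count in every library and were singled out after their values were seen. Vmn1r228 had 1, 10 and 2 counts in WT, 3, 9 and 14 in het, and 9, 8 and 9 in homo libraries. Vmn1r233 had 7, 10 and 4 counts in WT, 3, 3 and 18 in het, and 2, 8 and 5 in homo libraries. Het 3 was the highest library for both genes and WT 1 the lowest for Vmn1r228.

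Vmn1r178 had 4, 1 and 11 counts in WT, 2, 4 and 11 in het, and 4, 4 and 4 in homo libraries. Vmn1r199 had 4, 10 and 2 counts in WT, 3, 3 and 6 in het, and 3, 3 and 10 in homo libraries. Vmn1r178 was equally high in WT 3 and het 3, and for Vmn1r199 het 3 was exceeded by WT 2 and homo 3. The counts of Vmn1r199 are uncertain in that its exons overlap those of the pseudogene Vmn1r-ps102 on the same strand. Together the 5 genes supplied 192 of the 400 Vmn1r counts (48.0%) in the 7 other libraries and 59 of the 912 (6.47%) in het 3.

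The remaining members were seen in few libraries. Of the 211 genes, 56 had counts in exactly 1 library, which was het 3 for 44 of them, 42 in 2 libraries and 23 in 3. Only 5 genes had counts in all 9. Het 3 held counts of 127 genes and WT 1 of 75, while each of the 7 other libraries held counts of 13 to 29. Het 3 and WT 1 had 67 genes in common, which is 89.3% of the WT 1 genes and 52.8% of the het 3 genes. Over the 7 other libraries together 63 genes were seen, of which 54 (85.7%) were also seen in het 3. Het 3 held 127 of the 143 genes seen in any library, so neither overlap marks a particular set of receptors. Within het 3 the median seen gene had 4 counts and the highest 69, so its excess was spread over many receptors.

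At least 10 counts over all libraries were reached by 46 genes, and no gene had 10 in each library. This sum includes het 3, and without that library 13 genes reached it. The lead of het 3 among the 46 thus follows largely from the filter. Het 3 was the highest library for 41 of the 46. It held more than 50% of the counts for 32, another library did so for 1, and no library did so for 13. The 1 exception was Vmn1r206, a V1rh gene with 11 counts in WT 1, 7 in het 3, 1 in het 2 and none elsewhere. For 16 of the 46 genes the 7 other libraries had no count at all, and only 12 genes reached 10 counts within those 7.

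**Figure D2:**
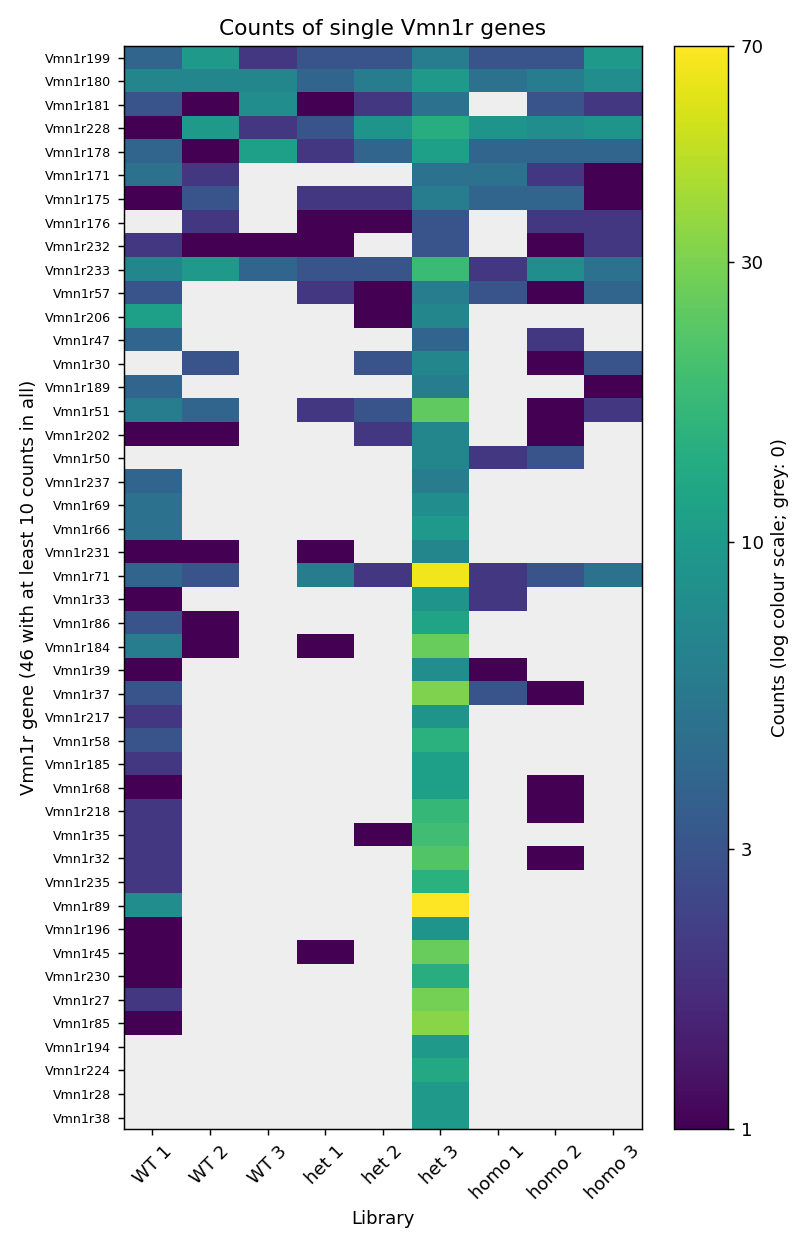
Counts in each of the 9 libraries (columns) of the 46 Vmn1r genes with at least 10 counts in all (rows), ordered by the share of counts in het 3, on a log colour scale with 0 in grey. The het 3 column is filled in all rows, the WT 1 column is mostly filled, and only a few upper rows, among them Vmn1r180 and Vmn1r228, have counts in every library.

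The genes with more than 50% of their counts in het 3 came from different subfamilies. Vmn1r71, a V1re gene, had 4, 3 and 0 counts in WT, 6, 2 and 64 in het, and 2, 3 and 5 in homo libraries. Vmn1r89 had 8, 0 and 0 counts in WT, 0, 0 and 69 in het, and none in homo libraries. Vmn1r71 was thus also present at a low level in 7 of the 8 libraries besides het 3, whereas Vmn1r89 was counted only in het 3 and WT 1.

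Vmn1r85, the only V1rj gene, had 1 count in WT 1, 33 in het 3 and none elsewhere. Vmn1r37, a V1rc gene on chromosome 6, had 3, 0 and 0 counts in WT, 0, 0 and 31 in het, and 3, 1 and 0 in homo libraries. Vmn1r51, a V1ra gene, had 6, 4 and 0 counts in WT, 2, 3 and 25 in het, and 0, 1 and 2 in homo libraries. All of them were highest in het 3. Only 18.1% of the 50-base windows of Vmn1r37 are unique, since it is 97.9% identical to its neighbour Vmn1r36, against 87.8% for Vmn1r51, 90.4% for Vmn1r89 and 100% for Vmn1r71 and Vmn1r85. Vmn1r51, Vmn1r71 and Vmn1r85 overlap exons of another gene on the opposite strand (Gm20426, Gm5130 and Gm4270), and the strand setting of the counting is not given in the sources used here.

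By subfamily, the V1rd genes took a larger share of the counts in the 7 other libraries than in het 3. They held 118 of 400 counts (29.5%) in those 7 libraries, 14.6% in WT 1 and 7.02% in het 3 (exact 95% binomial interval 5.45% to 8.87%). Most of the 118 came from Vmn1r180 and Vmn1r178, described above. In single libraries the V1rd share was 25% in WT 2, 66.7% in WT 3, 21.6% in het 1, 28.8% in het 2, and 25.9%, 26.9% and 22.2% in homo 1 to 3. All 7 exceeded het 3, and WT 3 was the highest with 28 of 42 counts, an interval of 50.5% to 80.4%. In WT 3 the counts of this subfamily came mainly from Vmn1r178 with 11, Vmn1r181 with 8 and Vmn1r180 with 7.

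The summed level of the V1rd genes was itself higher in het 3 than in the 7 other libraries. They summed to 2.53 CPM in het 3 and to 0.378 to 1.03 CPM in the 7 other libraries, 3.997-fold above their mean. Every other lettered subfamily with at least 8 genes had a larger ratio of het 3 to that mean: V1re 13.0-fold, V1rh 14.2-fold, V1ra 26.3-fold, V1rc 43.6-fold, V1ri 49.8-fold and V1rg 53.6-fold. The last 2 of these ratios rest on 5 counts each in the 7 other libraries. Among smaller subfamilies, the 5 V1rf genes stood at 11.1-fold and the 4 V1rb genes at 2.64-fold, below V1rd. The V1rb ratio rests on 2 counts in het 3 and 5 in the 7 other libraries. The 31 V1rc genes held 18.9% of the counts in het 3 and 7.25% in the 7 other libraries. No letter was given for 83 genes, of which 49 were not seen. The naming is incomplete: Vmn1r100 had no letter, although its coding sequence is identical to that of the V1rd gene Vmn1r148. A further 5 genes, Vmn1r89 among them, had more than 1 letter, with 82 counts in het 3 and 8 in the 7 other libraries.

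**Figure D3:**
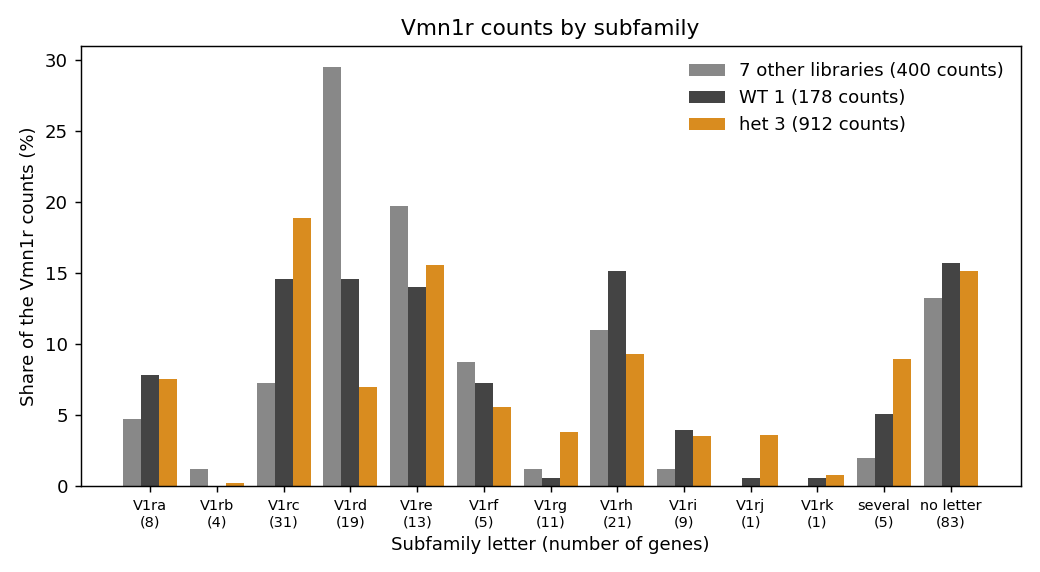
Share of the Vmn1r counts (%) held by each subfamily, with the number of its genes in brackets, in the 7 other libraries together, in WT 1 and in het 3. V1rd genes hold 29.5% in the 7 other libraries and 7.02% in het 3, and V1rc genes 7.25% and 18.9%.

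The same contrast was seen along the genome, where members less than 1 Mb apart were taken as 1 cluster and RefSeq positions on GRCm38 were used. The largest cluster, on chromosome 7 at 20101158-24055691, holds the 66 genes from Vmn1r91 to Vmn1r183. It supplied 34.0% of the counts in the 7 other libraries and 6.14% of those in het 3, and 43 of its 66 genes were not seen. It includes Vmn1r178 and Vmn1r180, so its share rests largely on the same counts as that of the V1rd genes. The 24 genes from Vmn1r66 to Vmn1r89, on chromosome 7 at 10273828-13220289, supplied 7.25% and 27.7%, respectively. On chromosome 6 at 66552183-66805332, all 8 genes from Vmn1r32 to Vmn1r39 were seen, with 2.25% of the counts in the 7 other libraries and 11.8% in het 3. All 14 genes on chromosome 17, from Vmn1r224 to Vmn1r237, were seen as well, and they supplied 23.25% and 12.4%, mostly from Vmn1r228 and Vmn1r233 in the 7 other libraries.

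Levels of different genes were compared per kb of coding sequence, which was known for 206 Vmn1r and 1109 Olfr genes. Averaged over the 7 other libraries, 143 of the 206 Vmn1r genes were at 0, and the median Olfr gene lay at 2.68 CPM per kb (quartiles 1.36 and 4.51). The highest Vmn1r gene, Vmn1r228, reached 0.271 CPM per kb, and Vmn1r180 reached 0.254. Of the 1109 Olfr genes, 54 (4.87%) lay below each of these. Vmn1r233 followed with 0.190, Vmn1r178 with 0.181, Vmn1r199 with 0.163 and Vmn1r71 with 0.130 CPM per kb, and no other Vmn1r gene passed 0.1. Per kb of exon the levels were several-fold lower and the order changed, with 0.0715 CPM per kb for Vmn1r228, 0.0573 for Vmn1r178 and 0.0460 for Vmn1r180. Neighbours in the order by coding length differed by less than the larger of their SDs over the 7 libraries, which for Vmn1r228, for example, was 0.119 CPM.

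In het 3 the distribution was shifted for the Vmn1r genes and hardly for the Olfr genes. There 86 of the 206 Vmn1r genes passed 0.1 CPM per kb and 8 passed 1, while the median Olfr gene lay at 2.72. Vmn1r89 reached 2.88 and Vmn1r71 2.75 CPM per kb, above 52.8% and 50.6% of the Olfr genes in the same library. The summed Olfr level in het 3 was 1.07-fold its mean in the 7 other libraries.

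**Figure D4:**
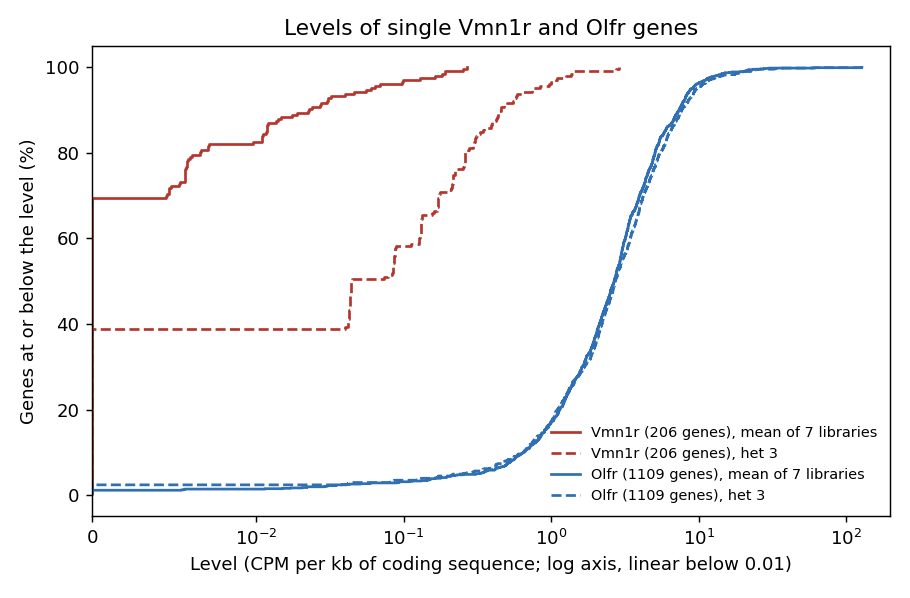
Cumulative share of genes (%) at or below a level in CPM per kb of coding sequence (log axis, linear below 0.01), for 206 Vmn1r and 1109 Olfr genes, in the mean of the 7 other libraries (solid) and in het 3 (dashed). The Vmn1r curve ends at 0.271 in the 7 libraries and at 2.88 in het 3, and the Olfr curves lie almost on each other.

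Other genes of vomeronasal neurons were high in the same library. The 127 type 2 receptor genes (Vmn2r), which are known from the basal layer of the vomeronasal organ, summed to 91.9 CPM in het 3, 23.4 in WT 1 and 12.8 to 21.1 in the 7 other libraries, and 105 of them were highest in het 3. The 6 H2-M10 genes, which encode MHC class I-like molecules of the basal layer, summed to 4.55 CPM in het 3, 1.42 in WT 1 and 0.408 to 1.45 in the 7 other libraries. H2-M10.3 held 61 of their 115 counts in het 3. With H2-M1, H2-M9 and H2-M11, 9 such genes were listed, of which 6 were highest in het 3. H2-M9 and H2-M10.2 were highest in WT 1 (0.147 and 0.441 CPM, against 0.119 and 0.396 in het 3), and H2-M11 had 0 counts in het 3. The 3 formyl peptide receptor genes Fpr-rs3, Fpr-rs4 and Fpr-rs6 had 4 counts in all in each of WT 1 and het 3 and 1 count in the 7 other libraries together. Tfap2e, a transcription factor of basal vomeronasal neurons, had 13 counts in het 3 and at most 3 in any other library. It was 1 of 5 listed genes of lineage and zone, and the other 4 (Meis2, Bcl11b, Nrp2 and Robo2), which the MOE expresses at a far higher level, lay in het 3 within the range of the other libraries.

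The genes of the transduction pathway, most of which the MOE also expresses, did not single out het 3. The 7 listed genes summed to 808 CPM in het 3, 1031 in WT 1 and 839 to 1083 in the 7 other libraries, and none was highest in het 3. Gnai2, the G protein subunit of the apical layer, lay at 104 CPM in het 3, within the 94.6 to 194 CPM of the other libraries. Trpc2 was listed at 0 in all 9 libraries. The 3 listed blood markers Hbb-bs, Hba-a1 and Hba-a2 were also listed at 0. Such a 0 means that no read was assigned to the gene, which does not show that it was silent. Of the 5 vomeronasal neuron markers, 4 were counted, Vmn2r1 with 58 counts in het 3 and 11 to 31 elsewhere and H2-M10.3 with 61 and 4 to 33, Fpr-rs3 with 3 and 0 to 3, and Vmn2r26 with 6 and 1 to 10. Whether cells of the vomeronasal organ were present in the libraries was not tested.

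Comparing genotypes asks whether deleting the enhancer was accompanied by a change in these receptors. By genotype, the 211 genes summed to 4.21 ± 3.94 CPM for WT, 13.3 ± 19.8 for het and 2.51 ± 0.146 for homo (SD, n = 3 each). The WT and het spreads were set by WT 1 and het 3, without which the means were 1.95 ± 0.567, 1.86 ± 0.151 and 2.51 ± 0.146 CPM (n = 2, 2 and 3). No score over the family was tested.

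With at least 10 counts required, 46 Vmn1r genes entered a test across 19775 genes. The calls rest on edgeR's quasi-likelihood test and need a fold over 1.5 together with a Benjamini-Hochberg adjusted p under 0.05. None of the 46 was called in homo against WT, where 0.0202% of all genes were called, in het against WT (0% of all genes) or in homo against het (0.00506%). At an unadjusted p under 0.05, the counts were 0, 1 and 5 of 46, and the shares over all genes 3.45%, 1.28% and 0.662%. DESeq2 and limma-voom also called none. In homo against WT, all libraries of both genotypes had 3 counts or fewer for 27 of the 46 genes, and those of 1 genotype for 12 more. These numbers were 2 and 27 for het against WT, and 2 and 35 for homo against het. At such counts a call had little chance, so its absence does not show that these genes were unchanged. These 46 genes passed the filter largely through het 3: without that library 13 were tested.

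The median log2 fold change of the 46 genes was -0.81 for homo against WT, 2.04 for het against WT and -3.89 for homo against het, while the median over all genes was 0.00, -0.01 and 0.00. Without het 3 the medians of the 13 genes were 0.07, -0.35 and 0.32. In the fit with all 9 libraries the same 13 genes had medians of 0.08, 0.29 and -0.54, so that for these genes leaving out het 3 turned the direction for het against WT and for homo against het. The median of homo against WT differed with the genes included. Leaving out WT 1 instead, 36 genes were tested, with medians of 0 for homo against WT, 4.82 for het against WT and -3.48 for homo against het. Without het 3 none of the 13 genes had an unadjusted p under 0.05 in any comparison, against 3.01%, 1.88% and 0.481% of all genes. The comparisons share libraries and are not independent.

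Vmn1r71 was the 1 gene with an unadjusted p under 0.05 for het against WT, where it was higher by 3.36 on the log2 scale (SE 1.27) with an adjusted p of 0.99997 in edgeR. For homo against het the log2 fold change was -2.86 (SE 1.21), and its adjusted p in edgeR was 1. The het libraries had 6, 2 and 64 counts, so that het 2 lay within the range of the homo libraries and het 1 just above it. The other 4 genes below 0.05 for homo against het were Vmn1r45, Vmn1r51, Vmn1r85 and Vmn1r35, each with an edgeR adjusted p = 1. All homo libraries of these 4 genes had 3 counts or fewer, as had het 1 and het 2, and among the het libraries only het 3 had more. Vmn1r45, a V1ra gene, had 26 counts in het 3 and 1 each in WT 1 and het 1. Vmn1r35, a V1rc gene, had 19 in het 3, 2 in WT 1 and 1 in het 2.

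For Vmn1r180, the 1 gene above the floor throughout, the log2 fold change was -0.12 (SE 0.47) for homo against WT, 0.02 (SE 0.46) for het against WT and -0.14 (SE 0.48) for homo against het, and the lowest edgeR adjusted p was 0.99997. These differences were smaller than their errors, and at 4 to 10 counts per library a moderate change would not have been detectable.

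Libraries with replicate number 1 differed from numbers 2 and 3 in many genes: 1769 of 19775 genes (8.95%) were called by edgeR for that number. None of the 46 Vmn1r genes was among them, and 1 of the 46 had an unadjusted p under 0.05, against 42.6% of all genes. Het 3 held most of the counts for 32 of the 46 genes, and 16 had no count outside het 3 and WT 1. At such counts a call had little chance, so the test cannot show whether the Vmn1r genes share this difference. What the replicate numbers stand for is not stated by the labels.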

How the data were processed

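Total RNA of the whole MOE was made into polyA-selected, strand-specific libraries. According to the methods and the submitters' processing notes, the authors trimmed reads with Trimmomatic 0.36, mapped them to mm10 (GRCm38) with HISAT2 2.1.0 and deposited raw counts per gene from featureCounts of Subread 1.6.2. The annotation release, the strand setting and the treatment of multi-mapping reads are not given in the sources used here. The authors also deposited a signal, counts divided by a size factor per library with DESeq2 1.20.0, in which all 211 Vmn1r genes are present. It was not tested further.

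Genes with at least 10 counts over 9 libraries were tested with the two-sided quasi-likelihood test of edgeR 4.0.16 (R 4.3.3, TMM, legacy estimate), fitted on all 19775 genes and checked on simulated data. DESeq2 1.42.0 and limma 3.58.1 (voom) were alternatives. More than 3 counts in each library was taken as detected. Intervals are exact Clopper-Pearson (scipy 1.17.1). Lengths, overlaps and coding sequences came from GENCODE M21, and subfamilies and clusters from RefSeq, in which 210 genes matched. No promoter is shown: for 129 of 183 genes the RefSeq start lay over 50 bases from that of GENCODE.

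The replicate numbers are shared by the genotypes. Deviations of same-numbered libraries from their group means correlated at 0.672, 0.450 and 0.607 for het and WT. Unlike numbers gave at most 0.0316 there, so the numbers were taken to pair these. For homo and het the same-numbered values were 0.786, 0.317 and 0.127. Homo 2 with het 3, however, gave 0.519 and homo 3 with het 2 gave 0.587. For homo and WT the same-numbered values were 0.516, 0.293 and -0.0975, while homo 3 with WT 2 gave 0.508. Numbers 2 and 3 were thus not shown to pair homo with het or WT libraries. The main fit held genotype only, with a block for the replicate number as an alternative. Genes were named by a rule: genes detected, with an unadjusted p under 0.05 (at most 5 per comparison), called, or with over 50% of at least 10 counts in 1 library (at most 5). The members, gene lists and tests were chosen with earlier results of these data known.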

Additional observations from a re-analysis of the deposited data

How the results depend on the processing

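No Vmn1r gene was called in any of the 3 comparisons under RLE factors, library totals, no filter, DESeq2, limma-voom, only the libraries of the genotypes compared, a term for replicate number 1, the replicate block, the newer quasi-likelihood estimate, or without any 1 library, so leaving out libraries gave 0 to 0 calls. With filterByExpr no Vmn1r gene was left to test. The replicate block changed no call in any comparison: 0 genes were called, with 0, 1 and 3 of 46 genes at an unadjusted p under 0.05 for homo against WT, het against WT and homo against het, against 6.61%, 3.39% and 1.17% of all genes. The number of detected genes was 5 with at least 1 count in each library, 46 with at least 10 counts summed and 0 with at least 10 in each library, and 1 to 1 when leaving out libraries. Per kb of exon, in place of coding sequence, the mean over the 9 libraries was 0.0520 CPM for Vmn1r180 (0.288 per coding kb), 0.0733 for Vmn1r228 (0.278), 0.0450 for Vmn1r233 (0.271), 0.0690 for Vmn1r178 (0.218) and 0.0328 for Vmn1r199 (0.170). Leaving out 1 library moved the summed level to between 1.95 and 5.54 CPM in WT, 1.86 and 19.0 in het and 2.43 and 2.56 in homo libraries. The lowest WT value was that without WT 1 and the lowest het value that without het 3.

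Directions of the named genes turned in few cases, none of them called. When leaving out libraries, the log2 fold change of Vmn1r180 ranged from -0.27 to 0.072 for homo against WT, -0.35 to 0.21 for het against WT and -0.33 to 0.23 for homo against het. That of Vmn1r71 for homo against WT ranged from -0.092 to 1.31, and that of Vmn1r51 for het against WT from -0.31 to 2.55. For Vmn1r180, the values without both WT 1 and het 3, an alternative chosen after seeing the data, were 0.05 for homo against WT, -0.18 for het against WT and 0.24 for homo against het. Outside het 3, low counts limit the single-gene statements, and reads shared between near-identical copies limit which gene a count belongs to.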

Other observations

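Genes with at least 25 counts in a library and a CPM above 3 times that of each other library were counted in every library. Het 3 had 30 such genes, of which 8 were Vmn1r and 19 Vmn2r genes. The Vmn1r genes were Vmn1r27, Vmn1r37, Vmn1r45, Vmn1r51, Vmn1r71, Vmn1r85, Vmn1r89 and Vmn1r184. The remaining 3 were Vil1 with 72 counts in het 3 and at most 19 elsewhere, Ankrd63 with 43 and at most 8, and 2310057J18Rik with 42 and at most 13. Vil1 encodes villin, an actin-bundling protein of microvilli. WT 1 had 15 such genes and WT 3 had 285, none of them a Vmn2r gene, and the other libraries had 0 to 13. No Vmn1r gene could be among those of WT 1 or WT 3, where the highest had 11 counts.

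The type 2 receptor Vmn2r29 was counted well in all libraries, and without it the Vmn2r genes summed to 80.0 CPM in het 3, 16.5 in WT 1 and 5.20 to 9.63 in the 7 other libraries. Per kb of coding sequence Vmn2r29 lay at 3.47 CPM in the mean of those 7, above every Vmn1r gene. The formyl peptide receptor genes Fpr1 and Fpr2, which are known from neutrophils and monocytes, were highest in WT 3 and next highest in het 3. Fpr1 had 245 counts in WT 3, 38 in het 3 and 3 to 25 elsewhere, and Fpr2 had 284, 54 and 4 to 36.

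The lipocalin genes Lcn3 and Lcn4, which are expressed in nasal glands, also differed between libraries. Lcn4 lay at 186 CPM in het 3, 196 in WT 2 and 277 in WT 3, and between 25.4 and 77.2 CPM in the other 6 libraries, WT 1 included. The other gland genes counted did not share this pattern. Lcn3 lay at 450 CPM in het 3 and at 436 to 518 in WT 1 to 3, het 1 and homo 1, with 161 to 190 elsewhere. Bpifb9a lay at 1530 CPM in het 3, 1719 in WT 1, 2192 in WT 2 and 220 in WT 3. The summed Vmn1r level was 2.35 CPM in WT 2 and 1.55 in WT 3.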
